A study of Mus musculus with 15 samples.

Results

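The cells described here are colon cells that the submitters' cell table calls stem, set against all other colon cells of the same mouse. The call is made from the transcripts of Lgr5, a receptor that marks stem cells at the base of intestinal crypts, and of eGFP, the green fluorescent reporter placed at the Lgr5 gene. The members were taken from that table as cells with the organ colon, and they were split by its stem label. They number 698 stem-called and 3674 other cells, which together make 4372 of the 18919 cells in the series.

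The study profiled single cells of the colon and of the distal and proximal small intestine of 5 mice by Seq-Well S3. In this method single cells settle into small wells, a second cDNA strand is made, and unique molecular identifiers are counted (UMIs, 1 per captured RNA molecule). All 5 mice were 6 months old and carried the Lgr5-eGFP-IRES-CreERT2 allele, so the control mice hold the same reporter allele as the others. The 2 control mice ate a purified diet with 10% of kcal from fat and the 3 high fat diet mice ate one with 60%. The comparison between the 2 kinds of cell was made inside each mouse, and diet enters only as a difference of that comparison between mice.

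In the colon, Wnt signals from the tissue around the crypt base keep stem cells dividing, and Lgr5 itself is both a receptor for the Wnt-enhancing R-spondins and a Wnt target. Daughter cells move up the crypt, divide further as progenitors, and mature into absorptive colonocytes or, where Notch signalling is low, into secretory cells such as mucus-making goblet cells. The colon has no Paneth cells of the small intestinal kind, and deep crypt secretory cells lie between its stem cells in their place. Markers of each of these stages were therefore listed, beside markers of immune and stromal cells that a tissue digest can also hold.

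The 5 colon libraries differed in depth and in the cells they held. Control mouse 1 gave 279 stem-called and 1216 other cells, and control mouse 2 gave 113 and 789. High fat diet mice 1, 2 and 3 gave 79, 27 and 200 stem-called cells against 470, 297 and 902 others. Summed counts ran from 321496 to 4318774 UMIs for stem-called cells and from 1699260 to 19371175 UMIs for other cells. Stem-called cells had more UMIs than the others in 5 of 5 mice, with mouse medians of 14566 ± 6375 against 9671 ± 8024 (SD, n = 5). An exact two-sided sign-flip permutation test gave p = 0.0625, the smallest that 5 pairs allow. The gap was wide in high fat diet mice 1 and 2, with medians of 18430 against 4263.5 and 10401 against 2588 UMIs, and narrow in high fat diet mouse 3, with 19644 against 19443.5. Immune cells, taken as cells with more UMIs of 16 leukocyte genes than of 7 epithelial genes, made up 54.5% and 36.0% of the other cells in high fat diet mice 1 and 2. They made up 3.66% to 10.1% of the other cells in the remaining 3 mice and 0% to 5.06% of stem-called cells. The median mitochondrial share was 16.2% ± 3.63 in stem-called and 16.0% ± 2.74 in other cells (n = 5, exact permutation p = 0.6875). High fat diet mouse 2, the smallest and shallowest library, had the highest mitochondrial shares, at 22.6% and 20.9%. The colon libraries shared 1 cell barcode among them.

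**Figure D1:**
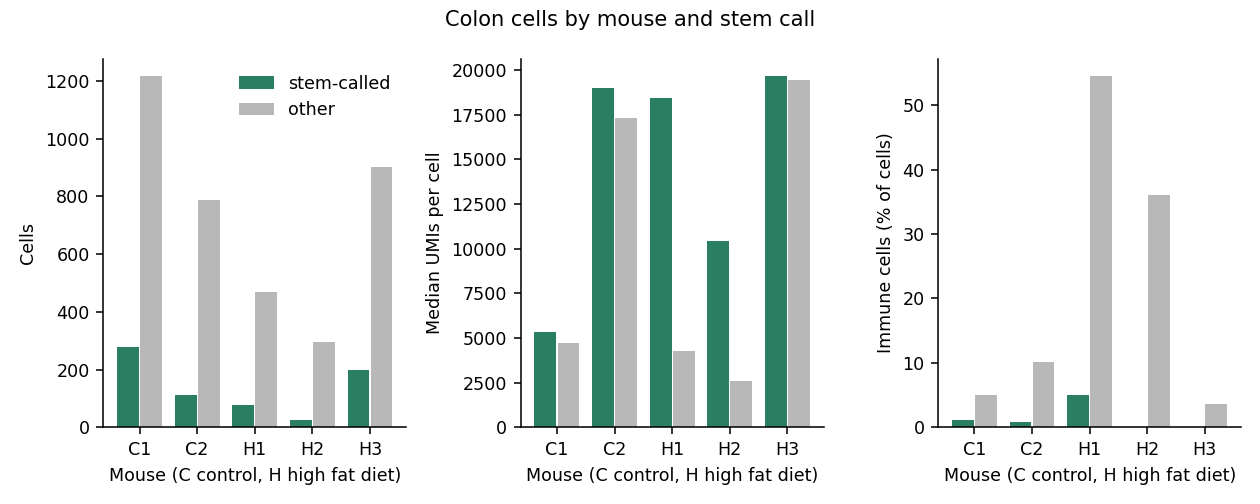
Colon cells of each mouse, split by the stem call: number of cells, median UMIs per cell and percentage of immune cells (bars; 1 value per mouse and population, so no error bar). C1 and C2 are control mice and H1 to H3 high fat diet mice; the immune share of other cells stands at 54.5% in H1 and 36.0% in H2 and at 10.1% or less in the remaining mice.

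In all 18919 cells the call matched the presence of at least 1 UMI of Lgr5 or eGFP, so neither gene is a finding here. Among the stem-called colon cells, 276, 113, 77, 27 and 198 of each mouse carried Lgr5, and 8, 0, 7, 0 and 7 carried eGFP, in the order control mice 1 and 2 and high fat diet mice 1 to 3. That order holds for every series of 5 values below. The call reached 16.0% of colon cells (95% exact binomial interval 14.9% to 17.1%), against 29.0% in the distal and 25.3% in the proximal small intestine, where cells were deeper (median 13192 and 14379 against 9327 UMIs). At a fixed depth of 1500 UMIs in every cell it reached 4.56% of colon, 9.95% of distal and 6.72% of proximal cells. Immune cells, which should lack Lgr5, were called stem in 8 of 545 cases (1.47%, interval 0.636% to 2.87%, median 3322 UMIs), against 690 of 3827 other colon cells (18.0%, median 11217 UMIs). At that fixed depth the call reached 0.798% of immune and 5.05% of other colon cells, and 44 and 26 shallower cells were left out. These intervals cover counting error only.

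Counts were summed over the stem-called and over the other cells of each mouse, which gave 10 sums, and were tested gene by gene with edgeR's quasi-likelihood test with mouse as a block. A gene is called where its Benjamini-Hochberg adjusted p was under 0.05. Levels are given as CPM, the summed counts scaled to a common library total, and a fold change is stem-called over other on the log2 scale. In sums over cells, fewer cells of a type and less RNA per cell cannot be told apart. Of 11107 genes tested, 3606 were called (32.5%), 1675 of them higher (15.1%) and 1931 lower (17.4%) in stem-called cells. For 10.2% of genes tested the 5 stem-called and the 5 other sums did not overlap. The median fold change over all genes was 0.01. These shares are the background against which each list below is read.

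Promoter sequence was read for the lists in which Wnt targets, crypt base, goblet and absorptive genes were called. TCF and LEF factors carry the Wnt signal to DNA, and the letters CTTTGAT are a core of their sites. On the opposite strand these letters read ATCAAAG. They were searched on both strands in the 250 bases before each transcription start in RefSeq (GRCm38.p6). They were found in 3.21% of 32851 such windows. A gene can have more than 1 window. Of the called Wnt genes, 6 of 10 had a window and 1 of these held the letters, Sp5 (1 of 7 windows). Of the called stem and crypt base genes, 16 of 20 had a window and 1 held them, Tnfrsf19 (1 of 26 windows). Of the called goblet cell genes, 7 of 17 had a window and 1 held them, Atoh1 (1 of 10 windows). Of 17 called absorptive genes with a window none did (0 of 20 windows). Axin2, Ascl2, Rnf43 and Ephb3 had windows without these letters. The windows that held them are shown 5′ to 3′ on the gene's strand with the letters in capitals, since they are the windows of these called genes in which the letters lie. Sp5 lies on the plus strand (chr2:70474673-70474922), Tnfrsf19 on the minus strand (chr14:61037988-61038237) and Atoh1 on the plus strand (chr6:64728875-64729124).
Sp5: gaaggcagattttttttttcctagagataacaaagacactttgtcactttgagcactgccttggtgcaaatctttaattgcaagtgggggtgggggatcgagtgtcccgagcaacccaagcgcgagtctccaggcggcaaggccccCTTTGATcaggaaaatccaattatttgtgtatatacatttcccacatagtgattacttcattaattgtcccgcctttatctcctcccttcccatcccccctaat
Tnfrsf19: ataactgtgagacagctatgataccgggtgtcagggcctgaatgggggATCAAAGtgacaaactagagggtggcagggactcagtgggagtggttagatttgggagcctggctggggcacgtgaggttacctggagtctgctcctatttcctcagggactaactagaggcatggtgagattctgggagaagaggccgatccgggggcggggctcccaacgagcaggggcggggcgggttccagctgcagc
Atoh1: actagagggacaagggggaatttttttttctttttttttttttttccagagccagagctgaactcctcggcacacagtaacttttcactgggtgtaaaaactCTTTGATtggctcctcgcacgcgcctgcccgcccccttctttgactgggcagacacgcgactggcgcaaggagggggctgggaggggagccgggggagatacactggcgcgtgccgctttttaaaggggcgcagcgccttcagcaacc
The letters begin 104 bases before the start of Sp5, 202 before that of Tnfrsf19 and 148 before that of Atoh1. A match of letters describes the window and is not a measured binding site.

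Genes of the crypt base were higher in stem-called cells as a group. Of 23 tested members of the stem and crypt base list, 20 were called higher and 0 lower, with a median fold change of 1.23. Smoc2 encodes a secreted matrix protein of the crypt base (chr17:14279490-14404790). It stood at 306, 330, 280, 350 and 288 CPM in stem-called cells and at 111, 47.2, 79.6, 56.8 and 45.0 CPM in the other cells of the same mice. All 5 stem-called values lay within 70 CPM of each other and above every other-cell value. The fold change was 2.26 (SE 0.19, adjusted p = 2.67e-05, edgeR), that is 4.80-fold. Ascl2 encodes the Wnt-responsive transcription factor that sets stem cell fate in the crypt (chr7:142966822-142969264). Its levels were 60.5, 40.3, 62.01, 95.7 and 59.2 CPM against 28.1, 6.04, 18.8, 13.4 and 9.47 CPM. The groups did not overlap, and the fold change was 2.14 (SE 0.24, edgeR adjusted p = 0.00014). Scn2b, a sodium channel subunit, stood at 94.7 ± 29.3 against 19.3 ± 12.2 CPM (n = 5) and had the largest fold change of the list, 2.50 (SE 0.23, edgeR adjusted p = 4.25e-05). Rgmb, a co-receptor for bone morphogenetic proteins (1.21), and the zinc finger factor Zbtb38 (1.33, 417 ± 52.4 against 171 ± 48.0 CPM) were also higher in 5 of 5 mice.

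The other called members, named after their values were seen, spanned several roles. Lrig1, a brake on growth factor receptors, was higher by 1.12, the chloride transporter Slc12a2 by 1.298, the progenitor factor Sox9 by 0.81 and the cell cycle kinase Cdk6 by 1.32. Igfbp4 (1.64), Esrrg (1.67), the RNA-binding protein Mex3a (1.55), Rnf32 (1.33), Cdca7 (1.23), Aqp1 (1.15), Tnfrsf19 (1.14), Pdgfa (0.94), Hopx (0.72) and Soat1 (0.36) were called higher as well. So was the chloride channel regulator listed as Clca4, the older symbol of Clca3b (1.64). The 3 tested members that were not called were Prom1 (0.10, adjusted p = 0.59), Bmi1 (0.32, adjusted p = 0.19) and Aqp4 (−0.16, edgeR adjusted p = 0.288). Aqp4, a water channel, stood at 263, 370, 320, 409 and 297 CPM in stem-called and 297, 512, 378, 326 and 329 CPM in other cells, so the 2 groups overlapped. Olfm4, a stem cell marker of the small intestine, had no counts in any colon sum and was not tested. Such an empty entry sets no limit on its level. With immune cells left out, 20 of the 23 were called higher and 1 lower, Aqp4 (−0.32, adjusted p = 0.0267), with a median of 1.10 beside 36.2% of all genes called. Bmi1 was then called (0.48, adjusted p = 0.0226) and Pdgfa was not (0.81, adjusted p = 0.0592).

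**Figure D2:**
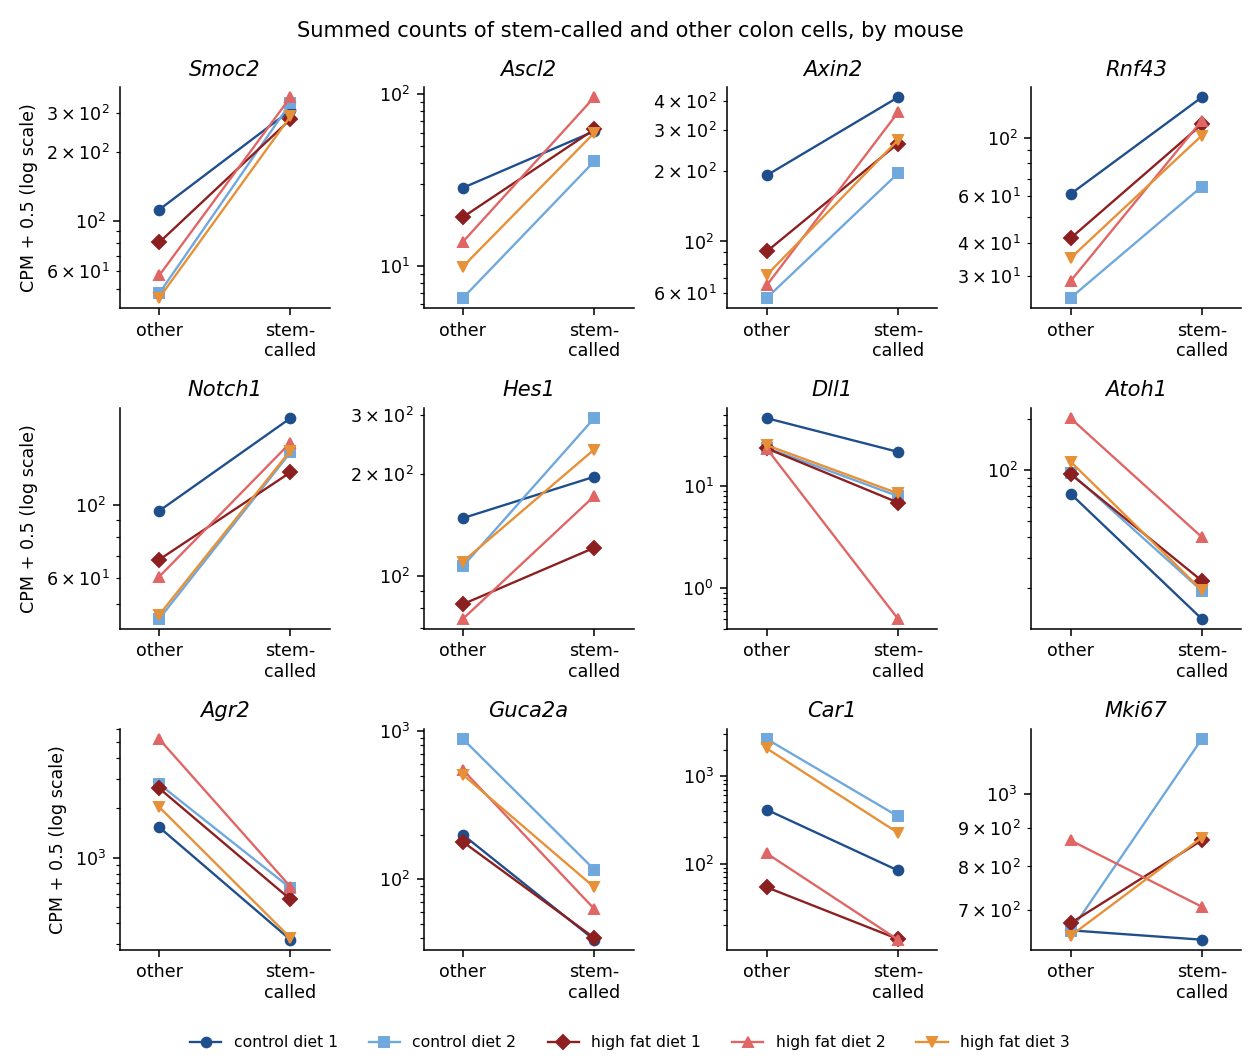
Levels of 12 genes in the summed counts of other (left) and stem-called (right) colon cells, 1 line per mouse; the vertical axis is CPM plus 0.5 on a log scale and differs between panels. Smoc2, Ascl2, Axin2, Rnf43, Notch1 and Hes1 rise in all 5 lines and Dll1, Atoh1, Agr2, Guca2a and Car1 fall in all 5, while Mki67 rises in 3 and falls in 2.

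Wnt targets and feedback genes were higher as well. Of 15 tested, 10 were called higher and 0 lower, with a median of 0.83. Axin2, a Wnt target that in turn limits beta-catenin, stood at 414, 195, 262, 357 and 271 CPM in stem-called cells (chr11:108917828-108950783). In the other cells it stood at 192, 56.8, 90.1, 64.4 and 71.4 CPM. Control mouse 1 was highest in both populations and control mouse 2 lowest, yet within each mouse the stem-called cells were at least 2-fold higher. The fold change was 1.72 (SE 0.15, edgeR adjusted p = 3.39e-05). Rnf43 encodes a ubiquitin ligase that removes Wnt receptors from the surface. It was at 107 ± 28.0 against 37.7 ± 14.3 CPM (n = 5), 2.79-fold higher, with no overlap between the groups. Its relative Znrf3 was higher by 0.94. The guidance receptor Ephb3, which keeps cells at their place along the crypt, was at 186 ± 39.8 against 67.4 ± 31.6 CPM, a fold change of 1.51 (SE 0.13, edgeR adjusted p = 2.54e-05). Sp5 (1.72), Cd44 (1.34), Myc (1.13), Zfp703 (0.83), Ccnd1 (0.41) and Ephb2 (0.36) were the other called members. The DNA-binding partners Tcf7 (−0.07, adjusted p = 0.87) and Tcf7l2 (−0.28, adjusted p = 0.23), the receptor Lgr4 (0.15, adjusted p = 0.27), Ccnd2 (0.12, adjusted p = 0.33) and Bambi (−0.03, adjusted p = 0.95) were not called. Without immune cells the count was again 10 higher and 0 lower of 15, with Tcf7 called higher (1.01, adjusted p = 0.0051) and Ephb2 not called (0.22, adjusted p = 0.0928), and in cells of 10000 UMIs or more it was 9 higher and 1 lower, beside 35.1% of all genes.

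Of 12 tested members of the Notch pathway, 3 were called higher, 3 lower and 6 in neither direction (median 0.05), beside 15.1% and 17.4% of all genes. The higher genes were the receptor Notch1 and the targets Hes1 and Nrarp, and the lower ones the Delta ligands Dll1 and Dll4 and the modifier Mfng. Notch1 stood at 185, 145, 126, 155 and 147 CPM against 95.7, 44.4, 67.7, 60.0 and 45.7 CPM, with no overlap (fold change 1.33, SE 0.14, edgeR adjusted p = 9.3e-05). Hes1, the repressor that Notch switches on and that blocks secretory fate, was at 196, 293, 121, 172 and 236 CPM against 148, 106, 81.9, 74.0 and 110 CPM. It was higher within 5 of 5 mice, though high fat diet mouse 1 in stem-called cells lay below control mouse 1 in other cells (0.94, SE 0.15, edgeR adjusted p = 0.00105). The feedback gene Nrarp was higher by 0.86 (46.8 ± 10.1 against 25.6 ± 5.42 CPM). The ligand Dll1, carried by early secretory cells, stood at 21.3, 7.52, 6.43, 0 and 8.04 CPM against 46.3, 23.4, 23.1, 23.0 and 24.9 CPM. It was lower in 5 of 5 mice without overlap (−1.58, SE 0.21, edgeR adjusted p = 0.000422). A second ligand, Dll4, was lower by 0.74 on the log2 scale (edgeR adjusted p = 0.012), a call that was lost without high fat diet mouse 3. Mfng, a glycosyltransferase that modifies Notch, was the third lower gene (1.61 against 6.63 CPM) and fell below the count filter once immune cells were left out. Leaving out control mouse 1 or either of high fat diet mice 1 and 2 also ended its call. The ligands Jag1 (0.15, adjusted p = 0.52) and Jag2 (−0.08, adjusted p = 0.91) were not called. Notch2 was not called with all cells (0.04, adjusted p = 0.94) but was higher with immune cells left out (1.01, adjusted p = 0.00342).

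Feedback genes of the EGFR and ERK pathway, which passes growth signals in the crypt, gave 4 higher and 2 lower calls of 15 (median 0.17). Over all genes tested 15.1% were called higher and 17.4% lower, so the count says little about the pathway as a whole. Etv4, an ERK-induced transcription factor, was higher by 1.36 (24.5 ± 11.2 against 9.51 ± 9.01 CPM). The inhibitors Spry1 (1.05) and Spred1 (0.55) and the phosphatase Dusp4 (0.67) were higher too. Etv5, a close relative of Etv4, was lower (−0.86, edgeR adjusted p = 0.00533). Dusp6 was lower by a fold change of −0.51 (edgeR adjusted p = 0.0363), a call that held only without control mouse 1 among the 5 fits that leave out 1 mouse. The receptors Egfr (0.12), Erbb2 (−0.02) and Erbb3 (0.22) were not called.

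Genes of DNA replication were higher in stem-called cells, and genes of mitosis less uniformly so. Of 31 replication genes 26 were called higher and 0 lower (median 0.73), and of 27 mitosis genes 12 were called higher and 0 lower (median 0.47). The helicase subunit Mcm7 stood at 135, 125, 202, 142 and 167 CPM against 119, 57.6, 120, 50.4 and 79.0 CPM (0.88, SE 0.15, edgeR adjusted p = 0.00172). Every stem-called value lay above every other-cell value, with 125 CPM the lowest of the former and 120 CPM the highest of the latter. Mcm6 (0.86), Mcm4 (0.80), Uhrf1 (0.93) and the sliding clamp Pcna (0.60) were also called. For mitosis, the kinase Aurkb was at 29.5 ± 13.7 against 15.3 ± 4.33 CPM (0.93, SE 0.17, edgeR adjusted p = 0.00193). Cdk1 (0.63) and the motor Kif20b (0.55) were higher in 4 of 5 mice. Leaving out high fat diet mouse 3 ended both calls, and leaving out control mouse 2 ended that of Kif20b. Mki67, the usual marker of cycling cells, stood at 638, 1183, 866, 706 and 873 CPM against 657, 655, 672, 866 and 646 CPM. It was higher in 3 mice and lower in 2 and was not called (0.28, SE 0.15, edgeR adjusted p = 0.168). High fat diet mouse 2 went the other way for the mitosis list, with a median within-mouse ratio of −0.76 against 0.27 to 0.90 in the other 4 mice. The replication list also differed between mice. Its median within-mouse ratio was 0.085 in control mouse 1, which gave the most stem-called cells, against 0.48 to 1.16 in the other 4 mice.

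Genes that build ribosomes were also higher. Of 20 ribosome biogenesis genes 14 were called higher and 0 lower (median 0.50), and of 75 cytosolic ribosomal protein genes 48 were higher and 0 lower (median 0.37). The nucleolar proteins Npm1 (299, 651, 391, 693 and 602 against 233, 313, 214, 330 and 335 CPM) and Ncl (1636 ± 181 against 924 ± 269 CPM) were 1.79-fold and 1.81-fold higher. Dkc1, which modifies ribosomal RNA, was higher by 0.69 (edgeR adjusted p = 0.000528). Among ribosomal proteins the rises ran from 0.27 (Rps15) to 0.85 (Rps23).

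The lists were also described in cells chosen or thinned by depth. In cells of 10000 UMIs or more, the medians were 1.16 for stem and crypt base, 0.71 for replication, 0.49 for mitosis and 0.46 for ribosome biogenesis, near those in all cells. Of 279, 113, 79, 27 and 200 stem-called cells, this setting kept 21, 102, 64, 15 and 190. Most cells of control mouse 2 and high fat diet mouse 3 are thus the same in both settings, so part of the likeness is built in. When each colon cell was thinned to 1500 UMIs and the call remade, the stem-called sums held 104, 21, 25 and 37 cells, and high fat diet mouse 2 was left out because 9 cells remained. The medians were then 0.90 for stem and crypt base (10 higher and 0 lower of 19) and 0.36 for Wnt (3 higher of 13). They were 0.22 for replication, −0.09 for mitosis and 0.20 for ribosome biogenesis, with 0 genes called by edgeR in each, beside 229 of 7157 genes called at all (50 higher, 179 lower). By construction this thinned call moves into the other group every cell that lost its Lgr5 and eGFP UMIs by chance, so the depth, the call, the cells and the mice used all differ from the comparison of all cells. Pcna (−0.49), Mcm4 (−0.25) and Kif20b (−0.12) changed sign in it. Crypt base and differentiation genes were still called then, among them Smoc2 (1.58), Ascl2 (1.65), Guca2a (−2.55) and Agr2 (−2.44). Stem-called cells were deeper in 5 of 5 mice, and the part of depth in the replication, mitosis and ribosome results was not tested beyond these values.

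**Figure D3:**
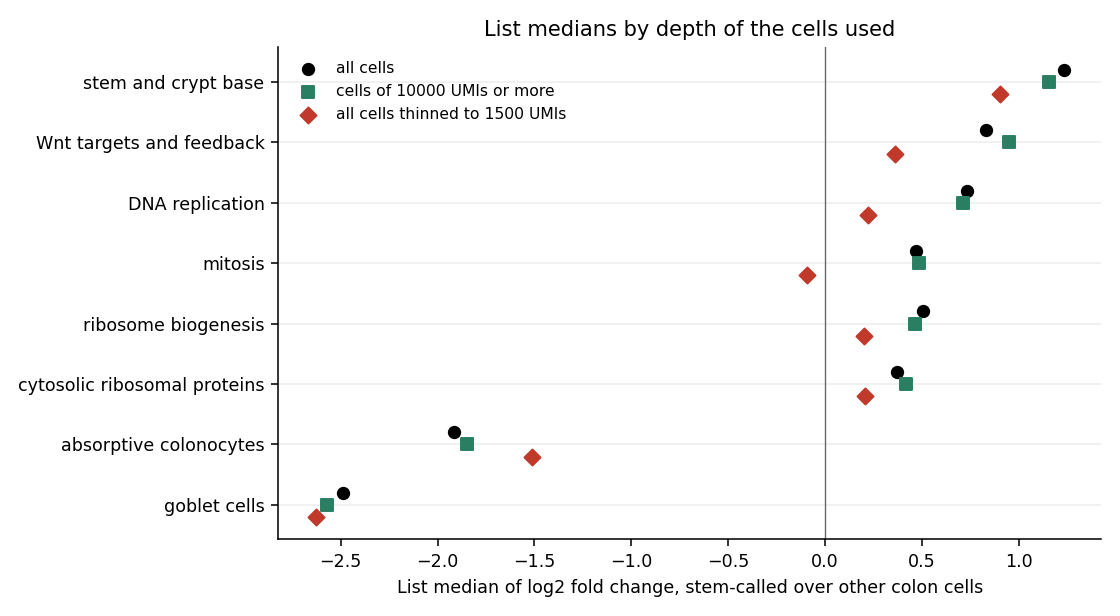
Median log2 fold change of 8 gene lists in stem-called over other colon cells, with all cells, with cells of 10000 UMIs or more, and with every cell thinned to 1500 UMIs (1 point per list and setting; no error bar). Stem and crypt base stay at 0.90 or above and the absorptive and goblet lists at −1.51 or below, while mitosis moves from 0.47 to −0.09 with thinned cells.

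Genes of mature colonocytes were lower in stem-called cells. Of 23 absorptive genes 0 were called higher and 20 lower, with a median of −1.92. Guca2a, the gut peptide guanylin, stood at 38.6, 116, 39.8, 62.7 and 88.0 CPM against 199, 882, 178, 545 and 506 CPM (chr4:119637732-119639465). The groups did not overlap, and the other cells were 6.05-fold higher (fold change −2.60, SE 0.13, edgeR adjusted p = 2.14e-06). Hsd11b2, which inactivates glucocorticoids, was lower by 2.44 on the log2 scale (53.5 ± 33.8 against 259 ± 83.5 CPM). The carbonic anhydrase Car1 stood at 83.6, 347, 13.5, 13.2 and 225 CPM against 412, 2629, 53.6, 131 and 2055 CPM. Its level differed more between mice than between populations, and both groups overlap, but it was lower in stem-called cells within 5 of 5 mice (−2.75, SE 0.17, edgeR adjusted p = 3.91e-06). Krt20, a keratin of the crypt top, was at 1.73, 103, 0, 0 and 148 CPM against 38.3, 1082, 6.05, 168 and 610 CPM (−2.98). The 3 genes not called were the microvillus genes Myo1a (−0.31, adjusted p = 0.19) and Vil1 (−0.17, adjusted p = 0.45) and the sulfotransferase Sult1a1 (0.28, edgeR adjusted p = 0.055).

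Secretory genes were lower too, and the goblet list fell by a similar amount in every mouse. Of 18 goblet genes 16 were called lower and 1 higher (median −2.49), and the within-mouse medians ran from −2.48 to −2.16. Atoh1, the transcription factor that commits cells to the secretory lineage, stood at 12.7, 18.8, 21.6, 39.6 and 19.0 CPM against 71.8, 95.7, 94.0, 202 and 111 CPM (chr6:64729125-64731245). Every stem-called value lay below every other-cell value (−2.38, SE 0.11, edgeR adjusted p = 2.14e-06). Agr2, a chaperone of mucin folding, was at 505 ± 172 against 2836 ± 1422 CPM (n = 5), 5.38-fold lower in stem-called cells. The lectin Zg16 was at 0.577, 35.4, 0, 0 and 8.93 CPM against 8.16, 689, 74.7, 258 and 181 CPM (−4.55), and Sytl2, which docks secretory granules, was lower by 2.63 on the log2 scale. The row listed as Clca3 is the older symbol of the goblet gene Clca1 and was among the largest falls (−4.22, edgeR adjusted p = 1.14e-05). The row listed as Clca1, the 1 goblet list member called higher (1.53, 23.9 ± 8.30 against 8.04 ± 1.47 CPM), comes from a family of near-identical copies whose symbols have changed. Which present gene it stands for is uncertain, and so it is for the row listed as Clca2 (2.03).

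Markers of deep crypt secretory cells were called lower in 6 of 7 cases and never higher (median −1.09). Dll1 and Dll4, already counted with the Notch pathway, are among them. The summed CPM of the list was higher in stem-called cells of 1 mouse, high fat diet mouse 1 (4004 against 3503 CPM). Kit, a receptor tyrosine kinase of these cells, stood at 51.3, 37.2, 50.9, 46.2 and 52.0 CPM against 106, 84.6, 94.2, 178 and 95.6 CPM, with no overlap (−1.09, SE 0.13, edgeR adjusted p = 0.000182). Reg4 varied widely between mice, at 40.4, 426, 29.2, 1578 and 99.8 CPM against 256, 904, 314, 3117 and 606 CPM, and was lower within 5 of 5 (−2.04, edgeR adjusted p = 0.000771). The pentraxin-like gene Mptx1 was 18.0-fold lower (46.0 ± 52.7 against 1075 ± 954 CPM). Of 12 enteroendocrine genes 7 were called lower and 0 higher (median −2.16). Chga, a hormone granule protein, was listed at 0 in stem-called cells of control mouse 1 and high fat diet mice 1 and 2, and at 76.4 and 61.6 CPM in the remaining mice, against 65.2, 289, 0, 92.5 and 233 CPM (−2.39). Of the 14 tuft cell genes with an entry, only 5 could be tested. All 5 were called lower, among them Dclk1 (1.26 ± 1.65 against 9.76 ± 7.10 CPM). Genes this low in stem-called cells can pass the count filter through the other cells alone, so their shared direction is not independent support. Over the 5 colon libraries together, 64 gene entries were seen in 1 cell of their library against 1578 in 5 cells, so a listed 0 sets no limit on a rare gene.

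Most immune and stromal genes that could be tested were lower in stem-called cells. These were 13 of 13 T cell genes (median −2.91) and 12 of 12 B and plasma cell genes (−3.14). So were 4 of 5 myeloid genes (−2.10) and 2 of 2 stromal genes (−2.03), beside 17.4% of all genes called lower. A gene can pass the count filter through the other cells alone, which favours lower calls, so these counts are not independent support. The 2 stromal genes were Vim and Pecam1, the only ones of 12 listed that could be tested. The T cell list summed to 13.2 to 138 CPM in stem-called and 144 to 1039 CPM in other cells, and the B and plasma cell list to 10.9 to 405 against 107 to 8803 CPM. The light chain Igkc, an antibody gene of plasma cells, stood at 261, 20.7, 2483, 1194 and 351 CPM in other cells and 16.1, 1.505, 64.9, 19.8 and 39.1 CPM in stem-called cells. High fat diet mice 1 and 2, with the most immune cells, had the highest other-cell values. Immune cells were picked partly by members of the T cell and the B and plasma cell lists, among them Cd3e and Cd79a. Smaller differences in these lists without such cells were therefore largely built in. With immune cells left out, 3 T cell genes were tested and 0 called (median −0.45; Gzma, the granzyme, −0.89, adjusted p = 0.174). Of 7 B and plasma genes then tested, 2 were called lower, Igj (−2.46) and Igkc (−1.28), and 0 higher. Only 1 stromal gene was then tested, and it was not called (−0.99). The 1 myeloid gene then tested was called lower (−0.89). The largest falls that held without any 1 mouse, in the lists or not, included Igj (−5.81), the ferlin Fer1l6 (−4.56), Sval1 (−4.34), Rep15 (−3.76) and, without immune cells, the chemokine Ccl6 (−3.79) and the tryptase Tpsg1 (−3.56).

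**Figure D4:**
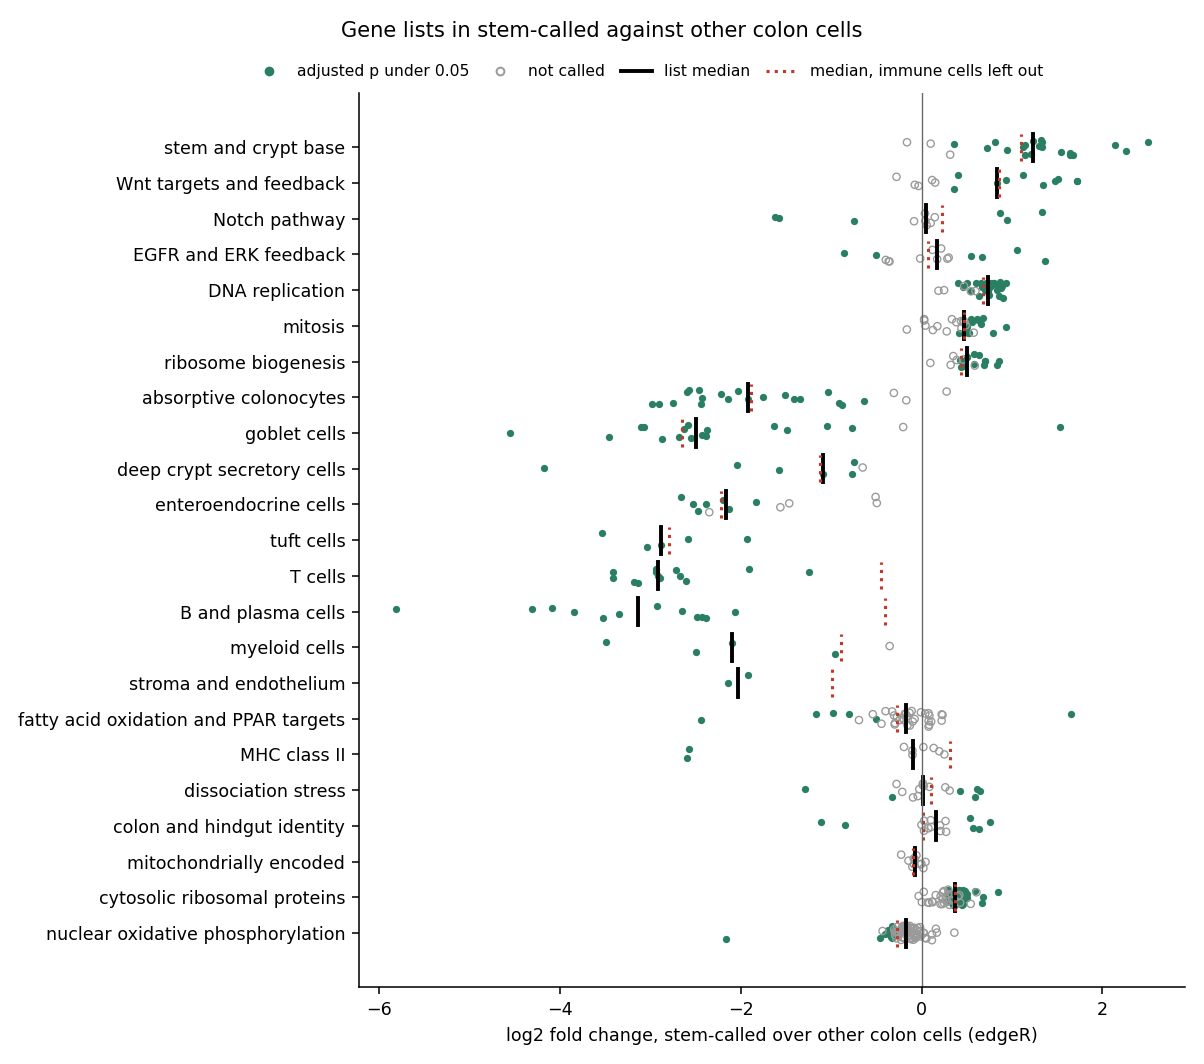
Log2 fold change of each tested member of 23 gene lists in stem-called over other colon cells (points; filled where adjusted p was under 0.05, open where not called; vertical scatter within a row has no meaning), with the list median in all cells (black) and with immune cells left out (red dotted). The stem and crypt base median is 1.23 and 1.10 in the 2 settings, and the T cell median is −2.91 over 13 genes with all cells and −0.45 over the 3 genes still tested without immune cells. Immune cells were picked partly by genes of the T cell list, so that change was largely built in.

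The largest rises that held without any 1 mouse lay partly outside the lists. Angpt2, a ligand of the vascular receptor Tie2, stood at 38.6, 29.0, 21.1, 23.1 and 16.5 CPM against 13.3, 1.81, 2.24, 4.47 and 2.18 CPM (2.77, SE 0.33, edgeR adjusted p = 0.000196). Its lowest stem-called value lay above its highest other-cell value. Rgcc, a regulator of the cell cycle, was at 91.6 ± 25.0 against 15.4 ± 8.64 CPM (2.50). The photoreceptor nuclear receptor Nr2e3 (2.22), the predicted gene Gm830 (2.21), the retinol dehydrogenase Rdh1 (1.94), the semaphorin Sema7a (1.91), the antiviral membrane protein Ifitm3 (1.87) and the fucosyltransferase Fut9 (1.84) followed. Amica1, an adhesion molecule that leukocytes also carry, was higher by 1.10 with all cells and by 2.40 with immune cells left out (edgeR adjusted p = 1.82e-05). By the same rule 601 genes qualified as higher and 836 as lower, of which the 12 largest in each direction were named.

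Genes of fatty acid oxidation that were called were mostly lower in stem-called cells, and their number depended on the cells used. A fatty diet supplies the substrate of this pathway, and fatty acids activate PPAR receptors, which induce its genes. Of 38 tested oxidation genes and PPAR targets, 1 was called higher and 5 lower (beside 15.1% and 17.4% of all genes), with a median of −0.17. Acot1, which frees fatty acids from coenzyme A, stood at 24.2, 30.1, 74.3, 49.5 and 35.3 CPM against 20.9, 6.46, 26.0, 7.66 and 8.06 CPM (1.66, SE 0.28, edgeR adjusted p = 0.00133). It was higher in 5 of 5 mice, with overlap between the groups through control mouse 1 and high fat diet mouse 1. The monoglyceride lipase Mgll was lower (−2.44; 2.12 ± 1.35 against 12.1 ± 9.34 CPM), as were the fatty acid binding protein Fabp2 (−0.81), Hsdl2 (−0.98), Slc25a20 (−1.17) and Acadl (−0.50). Leaving out either control mouse, or high fat diet mouse 3, ended the call of Acadl. Cpt1a, the entry step of mitochondrial fatty acid oxidation, stood at 206, 86.9, 290, 198 and 213 CPM against 214, 197, 299, 234 and 333 CPM and missed the threshold (−0.44, edgeR adjusted p = 0.0502). With immune cells left out, 17 of the 38 were called lower and 1 higher (median −0.27), beside 19.3% and 16.9% of all genes. Cpt1a was then among the lower ones (−0.54, edgeR adjusted p = 0.0138). In cells of 10000 UMIs or more, 13 of 37 were lower and 1 higher, beside 18.8% and 16.3% of all genes.

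Respiratory chain genes of the nucleus gave 0 higher and 13 lower calls of 77 (median −0.17), beside 17.4% of all genes called lower. Without immune cells they gave 0 higher and 38 lower calls of 77, beside 19.3% of all genes called lower. With all cells Cox7a1 had the largest fall (−2.16), and the other called genes lay between −0.46 (Ndufv3) and −0.29 (Ndufs4). Of 27 mitochondrially encoded genes with an entry, 11 could be tested. None of the 11 was called in either direction by edgeR, nor had an unadjusted p under 0.05, and their median was −0.08. The respiratory chain genes mt-Co2, mt-Co3, mt-Atp6 and mt-Nd4l were among those not tested, which sets no limit on their levels. For MHC class II, which presents antigen, 2 of 9 were lower, H2-DMb2 (−2.57) and H2-Ob (−2.59), and neither could be tested without immune cells. In that setting 3 of 7 were higher, beside 16.9% of all genes: H2-Eb1 (0.65), H2-DMa (0.37) and the master regulator Ciita (0.73). In all cells these 3 were not called (0.25, 0.13 and 0.20).

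Genes of early stress during dissociation gave 4 higher and 2 lower calls of 17 (median 0.02), beside 15.1% and 17.4% of all genes tested. Jun was higher in 5 of 5 mice by 0.59, at 650, 1729, 441, 380 and 1615 CPM against 363, 1255, 299, 214 and 1285 CPM, so that the mice differed more than the populations. Klf4, also a factor of differentiated colonocytes, was lower (−1.29, edgeR adjusted p = 0.00237). Among genes of colon and hindgut identity, 4 of 16 were higher and 2 lower (median 0.16), beside the same shares of all genes. Gata6, a zinc finger factor of gut endoderm, was at 147 ± 9.64 against 94.1 ± 14.2 CPM (0.64, SE 0.10, edgeR adjusted p = 0.000783), without overlap. Hoxb8 (0.75), Hoxb7 (0.57) and Hoxa9 (0.54) were higher. The posterior factor Hoxb13 was lower in 5 of 5 mice (−0.85), and so was Hoxd13 (−1.12), the latter no longer called without control mouse 1 or 2. Cdx1 (−0.0013) and Cdx2 (0.03) were not called.

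Whether the difference between stem-called and other cells depends on diet was tested as an interaction of population and diet. Among 11107 genes edgeR called none (0 genes, 0%). At p under 0.05 before adjustment it had 171 genes. DESeq2 and limma voom also called 0, with 78 and 213 genes at that unadjusted level. On simulated data with these 5 mice the test recovered 15% of genes with a 2-fold and 80% of genes with a 4-fold change of the difference, so smaller changes could go unseen. The smallest p-values with a positive sign were those of Emp1 (2.47, SE 0.37, adjusted p = 0.412), a membrane protein of colonocytes, Pmp22 (2.71, adjusted p = 0.412) and Gm14446 (1.89). The value of Gm14446 was 0.60 with control mouse 2 left out and 0.74 with number 3 of the high fat diet left out. Emp1 stood at 0.577, 20.3, 0, 0 and 84.2 CPM in stem-called and 3.02, 424, 0, 3.19 and 302 CPM in other cells, so the estimate rests on few mice. With a negative sign they were Cmah (−2.30, edgeR adjusted p = 0.412), Bank1 (−2.91) and H2-Ob (−2.21), the last −1.36 without high fat diet mouse 1. Bank1 and H2-Ob are genes of B cells, and their other-cell levels were high in the 2 mice with most immune cells, both on the high fat diet (Bank1 135 and 102 CPM against 2.29 to 14.1 CPM elsewhere). Neither was tested without immune cells.

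The same contrast was fitted in the small intestine of the same mice, in 1 model of 30 sums, to find where the colon differs. The contrast is the stem-called effect in the colon minus the mean of the distal and proximal effects. It was called for 909 of 11526 genes (7.89%), 425 with a higher (3.69%) and 484 with a lower colon effect (4.2%). Among the 6 higher colon effects with the smallest p, Idh1, which makes NADPH in the cytosol, was higher in stem-called colon cells (469 ± 110 against 248 ± 74.6 CPM, n = 5). It was lower in stem-called cells of the distal (72.5 ± 15.5 against 117 ± 15.3 CPM) and of the proximal small intestine (63.8 ± 13.1 against 121 ± 25.8 CPM). The 3 effects were 0.90, −0.70 and −0.94, and their contrast was 1.72 (SE 0.13, edgeR adjusted p = 7.77e-07), with the colon effect higher in 5 of 5 mice. Glutathione reductase, Gsr, turned in the same way (0.42 against −0.51 and −0.40, contrast 0.87), as did the microsomal glutathione transferase Mgst1 (0.54 against −0.58 and −0.57, contrast 1.11). The quinone reductase Nqo1 was not called in the colon (−0.12, adjusted p = 0.368) and was lower in stem-called cells of the small intestine (−1.61 and −1.59). Metallothionein Mt2 (0.95 against −1.19 and −0.24) and the tetraspanin-like Tm4sf5 (1.12 against −1.01 and −1.04) completed the 6.

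The 6 genes with the smallest p among lower colon effects included some whose effect had opposite signs in the organs. Atp2c2, a calcium and manganese pump of the secretory pathway, was at 8.48 ± 5.65 against 62.7 ± 55.4 CPM in the colon (−2.39), at 29.7 against 29.0 CPM in the distal and at 26.3 against 15.8 CPM in the proximal small intestine (contrast −2.78, SE 0.23, edgeR adjusted p = 2.33e-06). Qsox1, which forms disulfide bonds (contrast −1.69), and Camk2n1, a kinase inhibitor (−1.58), were likewise lower in stem-called cells of the colon. Sycn (contrast −2.40) and Ggh (−2.56) were lower in the colon and higher in both parts of the small intestine. Aqp4 had an effect of −0.18 in the colon against 1.67 and 1.21 (contrast −1.62). In the small intestine it stood at 219 ± 42.1 against 71.5 ± 19.6 CPM (distal) and 276 ± 22.2 against 120 ± 9.66 CPM (proximal), while in the colon both populations were at 330 ± 57.9 and 366 ± 85.0 CPM. All 12 of these genes kept their call without any 1 mouse. Without mouse as a block, a fit that ignores the pairing, Mt2 (adjusted p = 0.504), Mgst1 (0.0703) and Sycn (0.0886) lost it.

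Of the stem and crypt base list, 8 of 28 genes differed between colon and small intestine, beside 7.89% of all genes. The colon effect was higher for 1 and lower for 7. The 28 include Olfm4, Nrn1 and Fstl1, which had no colon counts, so their contrasts could not be estimated. Smoc2 separated the populations more in the colon (2.26 against 1.67 and 1.03, contrast 0.91, SE 0.19, edgeR adjusted p = 0.00704). Tnfrsf19 (1.17 against 2.65 and 2.74), Soat1 (0.36 against 1.72 and 1.51), Pdgfa, Rgmb, Prom1, Sox9 and Aqp4 separated them less. Ascl2 did not differ beyond its error (2.13 against 2.46 and 1.79, contrast 0.0033, SE 0.26). Of the Wnt list, Nkd1 had a lower (−1.92) and Ccnd1 a slightly higher colon effect (0.26), and with immune cells left out Ccnd1 was not called (0.15, adjusted p = 0.228). Nkd1 fell below the count filter when the colon was fitted alone. Its effect was 0.014 in the colon (edgeR adjusted p = 0.989) against 2.03 and 1.84, so its contrast rests on low colon counts. Nrarp was higher in stem-called cells of the colon (0.88) and not called in the small intestine (0.16 and −0.0038; contrast 0.80, adjusted p = 0.000728). Of 8 MHC class II genes, 4 had a lower colon effect and 0 a higher one, beside 4.2% and 3.69% of all genes. Cd74, the invariant chain, had effects of −0.10 in the colon against 0.51 and 0.40 (contrast −0.56, adjusted p = 0.0118), and H2-Aa, H2-Ab1 and H2-DMb1 differed likewise. With immune cells left out of all 3 organs, H2-Aa (−0.79, adjusted p = 0.0139) and H2-DMb1 (−0.64, adjusted p = 0.00673) kept their call, while Cd74 (−0.43, adjusted p = 0.0614) and H2-Ab1 (−0.37, adjusted p = 0.119) lost it.

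**Figure D5:**
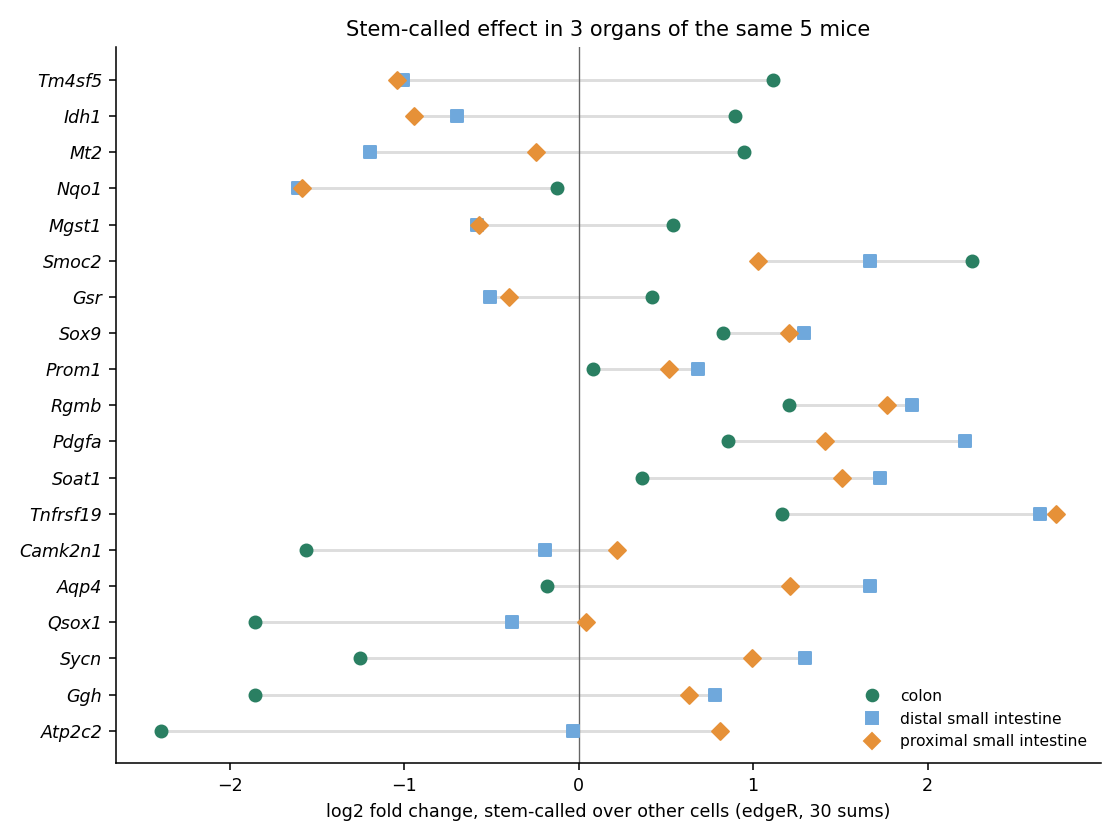
Log2 fold change of stem-called over other cells in the colon (circles), distal (squares) and proximal small intestine (diamonds) for the 12 genes with the clearest difference between organs and for the other stem and crypt base genes that differed (estimates from 1 fit of 30 sums of 5 mice; no error bar). Idh1 lies at 0.90 in the colon against −0.70 and −0.94, and Aqp4 at −0.18 against 1.67 and 1.21.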

How the data were processed

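Single-cell RNA-seq of 15 samples (3 gut regions of 5 mice) was deposited by the authors as a table of raw UMI counts for 17185 genes and 18919 cells, with a cell table of diet, organ, mouse and stem call. The genome build was mm10 per the submitters' processing notes; the aligner, counting tool and annotation are not given in the sources used here. The deposited cells had at least 538 UMIs and at most 35.0% mitochondrial counts, and no cell was removed. Over the 5 colon libraries, 17820 gene entries were seen in no cell, 64, 124, 369 and 750 in 1, 2, 3 and 4 cells, and 1578 in 5. The cell table numbers the control mice 1 and 3 and the titles 1 and 2, so by elimination the table's control mouse 3 stands for the title's number 2.

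Counts were summed per mouse and stem call (at least 10 cells a sum). edgeR 4.0.16 (R 4.3.3) fitted TMM-normalised sums after filterByExpr by population, with mouse as the block because both sums come from the same animal, and a quasi-likelihood F test. The SE is the log2 fold change over the square root of F. CPM use TMM library sizes, and within-mouse log2 ratios add 0.5 CPM. Lgr5 and eGFP were left out of counts and names. Alternatives were DESeq2 1.42.0, limma voom 3.58.1, DESeq2 size factors, no filter, no block, leaving out each mouse, immune cells or doublets (scrublet in scanpy 1.11.5 marked 33 colon cells, 0.755%), a call at 1500 UMIs per cell, on Lgr5 alone or on 2 or more UMIs, and deeper or shallower mice alone. Cells of 10000 UMIs or more, and leaving out immune cells together with each mouse, were chosen after seeing the data. Tested on simulated data, the colon comparison recovered 81% of 2-fold and 99% of 4-fold changes, and the organ comparison 79% and 94%.

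Members, gene lists and tests were chosen with earlier results of these data known. Named genes are up to 12 with the largest change in each direction that were called with all mice and without each 1, had the same direction in 5 mice and at least 20 CPM in the higher population. To these were added up to 8 in each direction without immune cells, up to 3 in each direction per list by smallest p, certain markers (Ascl2, Axin2, Smoc2, Mki67, Cpt1a and others), and 6 in each direction for diet and organ (3 where none was called). Other list members were named after their values were seen. Results of 2 listed genes are not reported here. Of the list symbols, 4 matched through older names. Coordinates and promoters are from RefSeq (GRCm38.p6).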

Additional observations from a re-analysis of the deposited data

Results flagged for a closer look

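Single samples stood far from the rest of their group in 8 of 135 groups of 5 checked by Dixon's test at 95%, where chance gives about 1 in 20. The within-mouse log2 ratio of Ccl6 was −7.23 in high fat diet mouse 1 and that of Dll1 was −5.55 in high fat diet mouse 2, where the stem-called sum listed Dll1 at 0. Aurkb (1.41, control mouse 2), Kit (−1.93, high fat diet mouse 2) and Tyrobp (−0.157, high fat diet mouse 2) also stood apart. High fat diet mouse 2 had the highest median mitochondrial share in stem-called (22.6%) and in other cells (20.9%), and high fat diet mouse 1 the highest immune share of stem-called cells (5.06%).

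The stem-called effect differed between the colon and the small intestine, by the test of that difference, for Idh1 (1.72), Nqo1 (1.47), Gsr (0.87), Tm4sf5 (2.14), Mt2 (1.67), Mgst1 (1.11), Atp2c2 (−2.78), Qsox1 (−1.69), Aqp4 (−1.62), Camk2n1 (−1.58), Ggh (−2.56) and Sycn (−2.40).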

How the results depend on the processing

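Of 3606 calls in the colon, 3074 were shared with DESeq2 in the same direction and 3076 with immune cells left out. The count was 1305 without the replicate block (mouse), 229 with the call at equal depth, 1015 in the 3 shallower mice alone and 5322 in the 2 deeper ones. Leaving out 1 mouse gave 1834 (high fat diet mouse 3 left out) to 3550, with 2168 when control mouse 2 was left out. With immune cells left out as well it gave 1927 (high fat diet mouse 3) to 3903. The diet difference had 0 calls in every setting run except that without control mouse 1, which gave 3, all lower (range 0 to 3). The organ difference had 41 calls without the replicate block, 12 at equal depth and 335 to 1039 when 1 mouse was left out (335 for control mouse 2, 450 and 376 for high fat diet mice 2 and 3). The block was used because both sums come from the same mouse; without it 75 named results kept their side of the threshold, 49 lost their call and 0 changed sign. At equal depth, where fewer cells and genes were used, the sign changed for Mcm4 (−0.25), Kif20b (−0.12), Aqp4 (0.10), Mki67 (−0.10), Pcna (−0.49), Cpt1a (0.0044) and the diet difference of Gm14446 (−0.80). The cause was not tested. The shallowest sum held 27 cells, which limits the low genes of high fat diet mouse 2.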
